A study of Mus musculus with 9 samples.

Results

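The Alx, Prrx and Msx homeobox genes measured here were Alx1, Alx4, Prrx1, Prrx2, Msx1 and Msx2, taken as the rows of the deposited gene table that carry these symbols. They are 6 of the 54532 genes of the table, of which 30199 had at least 1 read, and all 6 passed the low-count filter in every comparison. The RNA came from the lambdoidal junction of C57BL/6J mouse embryos, the place where the maxillary, lateral nasal and medial nasal prominences meet to form the upper lip and primary palate. The tissue was taken on embryonic days E10.5, E11.5 and then E12.5, which span the joining of the prominences, with 3 libraries per stage, and each library was made from a pool of embryos with no mutation or treatment named in the sources. The total count per library lay between 16581009 and 20836804. Because every library is a pool of dissected tissue, the p-values measure the spread between pools, and fewer cells of a type cannot be told apart from less RNA per cell.

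Alx and Prrx genes encode paired-class homeodomain transcription factors of the neural crest-derived mesenchyme of the face, the loose tissue that builds the facial skeleton and connective tissue. Msx genes encode homeodomain proteins that act mostly as repressors and are well-known responders to bone morphogenetic protein (BMP) signalling, in the mesenchyme and also in the overlying ectoderm. Loss of Alx1 or Alx4 disturbs the midface, loss of Prrx1 and Prrx2 shortens the jaws and limbs, and loss of Msx1 causes cleft palate and missing teeth. These genes form 3 pairs of paralogs (Alx1 and Alx4, Prrx1 and Prrx2, Msx1 and Msx2), and the comparisons below ask how the level of each gene, and the balance within each pair, differed among the 3 stages.

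In the GRCm38 (mm10) build used for the counts, Alx1 (ENSMUSG00000036602) lies on the minus strand at chr10:102998707-103030215 and Alx4 (ENSMUSG00000040310) on the plus strand at chr2:93642384-93681339. Prrx1 (ENSMUSG00000026586) lies on the minus strand at chr1:163245119-163313710 and Prrx2 (ENSMUSG00000039476) on the plus strand at chr2:30834972-30881251. Msx1 (ENSMUSG00000048450) lies on the minus strand at chr5:37820485-37824583 and Msx2 (ENSMUSG00000021469) on the minus strand at chr13:53466884-53473074. The counts cover the exons of each gene, UTRs included, a total of 1961 bases for Prrx2, 3097 for Msx1, 3279 for Msx2, 5756 for Alx1, 7060 for Alx4 and 11066 for Prrx1. The only exon sequence that a member shares with another annotated gene is 4.22% of Alx1, which overlaps the lincRNA Gm17028 on the same strand. The GC content of the longest transcript ranged from 43.6% in Prrx1 to 63.6% in Prrx2, against a median of 48.7% over protein-coding genes, and the 2 genes of each pair differ in it (45.5% for Alx1 and 54.8% for Alx4, 58.2% for Msx1 and 48.5% for Msx2).

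RefSeq promoter windows, the 250 bases before the start of a gene in GRCm38.p6, were matched for 4 of the 6 members, namely Prrx1, Prrx2, Msx1 and Msx2. Those of Prrx1 and Msx1 are shown, 2 genes that were higher at E11.5 and E12.5 than at E10.5, because all 250 bases of the Prrx2 and Msx2 windows are exon in GENCODE. Both are written 5′ to 3′ on the minus strand of the genome, with motif matches on either strand in capitals.
Prrx1, chr1:163313711-163313900: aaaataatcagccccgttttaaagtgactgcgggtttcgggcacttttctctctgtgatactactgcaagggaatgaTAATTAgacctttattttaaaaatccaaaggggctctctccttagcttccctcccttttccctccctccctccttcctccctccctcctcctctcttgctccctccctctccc
Msx1, chr5:37824586-37824835: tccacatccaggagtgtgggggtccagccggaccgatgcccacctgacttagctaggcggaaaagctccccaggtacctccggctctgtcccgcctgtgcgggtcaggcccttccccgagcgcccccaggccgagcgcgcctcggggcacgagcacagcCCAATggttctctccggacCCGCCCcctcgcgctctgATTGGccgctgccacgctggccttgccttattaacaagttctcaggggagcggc
The Prrx1 stretch is 190 bases long, since the bases next to the RefSeq start are exon in GENCODE, has a GC content of 48.9% and holds TAATTA, the core that homeodomains of these classes are known to bind, starting at position −173 from the RefSeq start. TAATTA was present in 4.84% of all 32851 windows, among them that of Msx2, where it starts at −187. The Msx1 stretch is 250 bases long, has a GC content of 68.0% and holds 2 CCAAT boxes (one read as ATTGG) and 1 GC box, GGGCGG (read as CCGCCC), motifs that were present in 33.8% and 32.7% of all windows. Neither stretch holds TATAAA, present in 12.4% of windows,. Both strands were searched and none of these matches overlaps another, and a match is a description of the letters.

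The 6 genes were among the stronger homeobox genes of this tissue. On the per-length scale (RPKM, reads per kilobase of exon scaled to the size of the library), Msx1 was at 76.0 ± 19.3 (SD, n = 3) at E10.5, 169 ± 15.3 a day later and 177 ± 40.8 at E12.5. Prrx2 was at 80.7 ± 37.3, 75.6 ± 3.65 and 74.9 ± 14.7 RPKM at the same stages. These were the highest levels of the 6, and Msx1 ranked 3, 1 and 1 and Prrx2 1, 3 and 3 by RPKM among the 232 genes that the deposited table annotates as homeobox factors. Alx1 was at 28.2 ± 5.34, 51.9 ± 2.69 and 58.6 ± 7.21 RPKM, and its rank went from 11 to 5 and 4. Alx4 was at 32.9 ± 9.82, 47.2 ± 1.69 and 40.4 ± 8.80 RPKM, rank 7 at each stage, and Prrx1 at 31.0 ± 3.62, 45.9 ± 2.53 and 47.4 ± 2.12 RPKM, rank 8, 8 and 6. Msx2 was the lowest of the 6 throughout, at 18.4 ± 1.52, 22.9 ± 1.56 and 15.2 ± 1.40 RPKM, rank 16, 15 and 23. As a description with no test, the 6 genes held 21.1 to 26.1% of the summed RPKM of the homeobox class in the E10.5 libraries, 32.6 to 35.1% at E11.5 and 33.9 to 35.8% at E12.5.

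The order of levels among the 6 genes was partly blurred by the spread between libraries. At E10.5 the libraries of Prrx2 and Msx1 overlapped, those of Alx4, Prrx1 and Alx1 overlapped, and Msx1 lay above these 3 genes in every library. Prrx2 did so in replicates 1 and 2, but at 37.8 RPKM in replicate 3 it was below the 40.2 RPKM of Alx4 in replicate 2, and Msx2 lay below all others. At E11.5 Msx1, Prrx2 and Alx1 were each apart from the next gene, Alx4 and Prrx1 overlapped, and Msx2 lay below. At E12.5 Msx1 stood above the rest, Prrx2 overlapped Alx1, Prrx1 overlapped Alx4, and Msx2 was again below all others. RPKM can still carry differences in GC content and transcript use between genes.

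**Figure D1:**
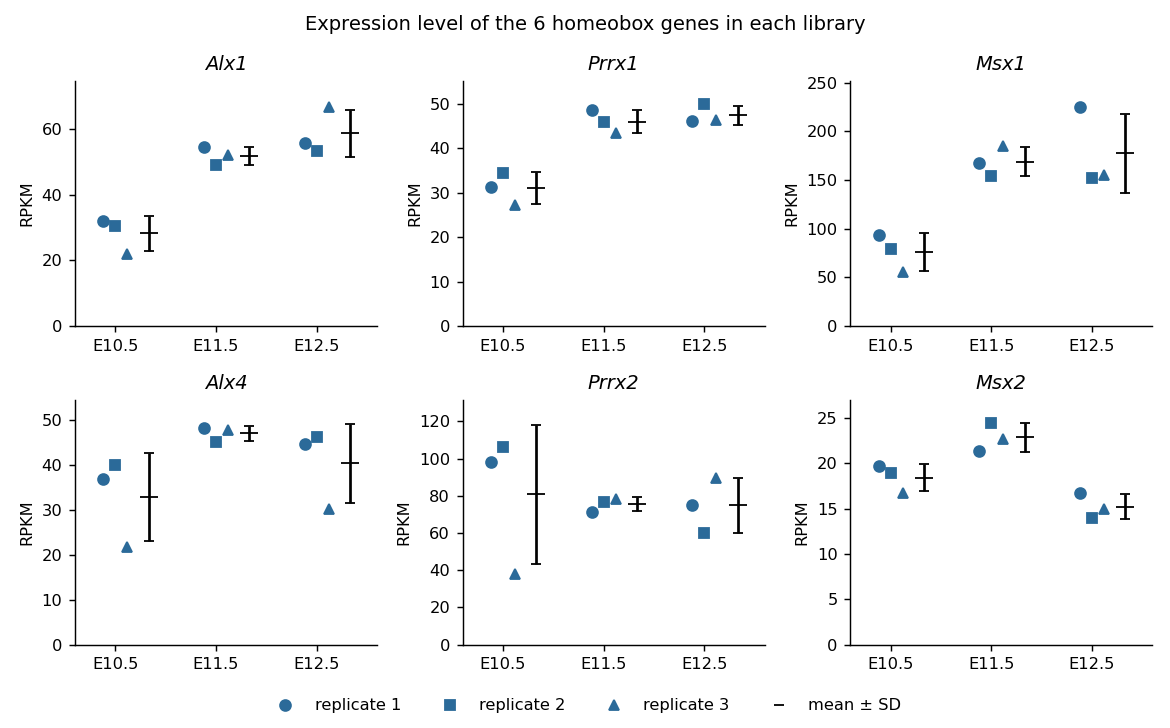
Level of each gene in RPKM (y axis, from 0, with its own scale for each gene) in the 3 libraries of each stage (x axis), with marker shapes for replicates and bars for the mean ± SD of 3 libraries. The E11.5 libraries of Msx1 (154 to 185 RPKM) lie above its E10.5 libraries (55.2 to 93.4), replicate 3 is the lowest E10.5 library for all 6 genes, and Msx2 is the only gene whose E12.5 libraries all lie below E11.5.

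One library bears on every comparison with E10.5. E10.5 replicate 3 was the lowest of its stage for all 6 members, by 0.20 on the log2 scale for Msx2, 0.27 for Prrx1, 0.50 for Alx1, 0.64 for Msx1, 0.82 for Alx4 and 1.43 for Prrx2 against the mean of replicates 1 and 2. Its expression also followed gene GC content. Across 16375 genes, the deviation from the mean of the 3 libraries of its stage had a rank correlation of −0.55 with GC content. The value was 0.44 and 0.47 in E10.5 replicates 1 and 2 and −0.26 to 0.27 in the other 6 libraries (a description, since genes are not independent). Deviations within a stage balance out for each gene, so the values of libraries of the same stage are not independent of each other. Genes within 1 percentage point of the GC content of each member differed by a median of 0.36 for Prrx1, 0.23 for Alx1, 0.06 for Msx2, −0.27 for Alx4, −0.48 for Msx1 and −0.69 for Prrx2. The members therefore lay below genes of similar GC content in that library, yet inside the range from the 5th to the 95th percentile of those genes.

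Marker genes differed in the same library. The summed level of 8 facial mesenchyme markers was 2269, 2112 and 1131 CPM (counts scaled to library size) in E10.5 replicates 1, 2 and 3, and that of 10 surface and oral epithelium markers was 470, 528 and 863 CPM. The 6 endothelial markers ranged from 114 to 308 CPM over the E10.5 libraries. The part of these differences and of the GC trend in the members' values was not tested, and values without this library are given beside the main results it moved.

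**Figure D2:**
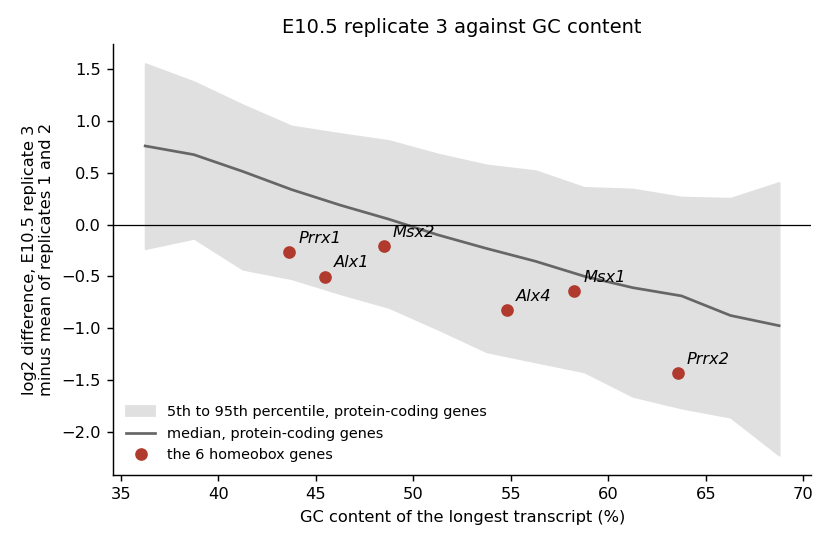
Log2 difference of E10.5 replicate 3 from the mean of E10.5 replicates 1 and 2 (y axis) against GC content of the longest transcript in percent (x axis), for protein-coding genes (line, median; band, 5th to 95th percentile) and for the 6 homeobox genes (points). All 6 points lie below 0 and below the median line, from −0.20 for Msx2 to −1.43 for Prrx2.

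The tissue label was checked against marker lists. Pdgfra, the receptor that marks facial mesenchyme, was at 147 CPM at E10.5, 352 CPM a day later and 423 CPM at the last stage (means of 3 libraries), and Twist1, a mesenchymal transcription factor, at 241, 439 and 423 CPM. The 8 mesenchyme markers together were at 1131 to 2269, 3605 to 4178 and 5425 to 6423 CPM at the 3 stages in turn, and none was at 0. Epithelial cells were present at every stage (Epcam 110, 90.3 and 108 CPM). The 10 epithelial markers summed to 470 to 863, 524 to 543 and 775 to 840 CPM. The 8 forebrain and neural progenitor markers were at 295 to 390, 123 to 129 and 146 to 193 CPM at the 3 stages in turn. These forebrain and neural progenitor markers did not move alike either. Sox1 was at 48.8 CPM at E10.5 and 0.632 CPM at E11.5, and Six3 at 53.8 and 30.2 CPM. Emx2 went the other way, at 12.5, 17.0 and 51.9 CPM at the 3 stages.

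Between E10.5 and E11.5, Msx1, Alx1 and Prrx1 were upregulated. Msx1, the BMP-responsive repressor required for palate and teeth, was 2.23-fold higher (95% interval 1.65 to 3.004, 3 libraries per stage), Alx1, needed for the midface, 1.85-fold higher (1.46 to 2.34) and Prrx1, a factor of mesenchymal growth, 1.49-fold higher (1.24 to 1.79). Alx4, Prrx2 and Msx2 did not pass the test. So 3 of the 6 members passed with a higher level at E11.5 and 0 with a lower one, where 6.19% of all 15708 genes tested passed upward and 5.58% downward. The median log2 fold change was 0.55 over the 6 members and −0.03 over all genes tested.

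In CPM, Msx1 was at 289, 246 and 171 in E10.5 replicates 1, 2 and 3 and at 519, 477 and 572 in the E11.5 libraries. The 2 stages were apart, with the lowest E11.5 library above the highest E10.5 library. The log2 fold change was 1.16 (SE 0.19) with an adjusted p of 0.00808 by the quasi-likelihood test of edgeR, adjusted by the method of Benjamini and Hochberg over all genes tested, which made Msx1 the only member to reach the study's threshold for a DEG (adjusted p up to 0.05 with a log2 fold change of 1 or more in size), met upward by 3.46% and downward by 2.61% of genes tested. Without E10.5 replicate 3 the log2 fold change was 0.97, under that fold threshold, and without E11.5 replicate 1 the adjusted p was 0.0523 by the same edgeR test.

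Alx1 was at 184, 176 and 127 CPM at E10.5 and at 313, 282 and 300 CPM at E11.5, with no overlap. Its log2 fold change was 0.88 (SE 0.15, adjusted p = 0.00924 by edgeR's quasi-likelihood test). Prrx1 was at 345, 381 and 301 CPM at E10.5 and 537, 507 and 481 CPM at E11.5, again with no overlap, and its log2 fold change was 0.57 (SE 0.12, edgeR adjusted p = 0.0185). Both calls were lost when single libraries were left out. The edgeR adjusted p of Alx1 was 0.0617 without the first and 0.0537 without the third E11.5 library, and that of Prrx1 was 0.0535 without E10.5 replicate 1, 0.0968, 0.0734 and 0.0795 without E11.5 replicate 1, 2 and 3.

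Alx4, the second Alx gene, was at 260, 284 and 154 CPM at E10.5 and at 341, 319 and 338 CPM at E11.5. Every E11.5 library was above every E10.5 library, yet the log2 fold change of 0.52 had a 95% interval of 0.05 to 1.00 and an edgeR adjusted p of 0.146. It passed when all genes with at least 1 count were tested (0.54, edgeR adjusted p = 0.0446). Msx2 was at 64.5, 61.9 and 54.9 CPM at E10.5 and at 70.2, 80.4 and 74.3 CPM at E11.5, also with no overlap, and its log2 fold change of 0.31 (0.06 to 0.56) had an edgeR adjusted p of 0.104. For 5 of the 6 members the E11.5 libraries thus lay above all E10.5 libraries, against 18.5% of genes tested, and for 0 of 6 below them, against 18.1%.

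Prrx2 was the member whose libraries overlapped. It was at 192, 208 and 74.2 CPM at E10.5 and at 140, 151 and 154 CPM at E11.5, so that the E11.5 libraries lay between E10.5 replicate 3 and the other two. The log2 fold change was −0.09, with a wide 95% interval of −0.84 to 0.66 and an edgeR adjusted p of 0.890. Without E10.5 replicate 3, Prrx2 was lower at E11.5, with a log2 fold change of −0.43 and an edgeR adjusted p of 0.000413, while the other 5 members were higher and all passed (log2 fold change 0.97 for Msx1, 0.74 for Alx1, 0.49 for Prrx1, 0.30 for Alx4 and 0.25 for Msx2). That fit called more genes of every kind, with 1592 DEGs among 16263 genes tested against 954 among 15708 in the main fit. The share of all genes passing in it was not computed. Counts passing without this library, here and for the lists below, therefore have no share to be set against. With the GC trend of each library removed and all 6 libraries kept, Prrx2 had a log2 fold change of 0.09 (edgeR adjusted p = 0.726) and Alx4 passed at 0.56 (edgeR adjusted p = 0.0246). Without E10.5 replicate 1 or 2, Prrx2 had a log2 fold change of 0.07 or 0.16 (edgeR adjusted p = 0.926 and 0.821). The sign of the Prrx2 change between these stages therefore depended on which E10.5 libraries were kept and on the treatment of GC content. Leaving out replicate 3 kept the sign and made the change larger.

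The mesenchyme markers moved upward over the same interval. By edgeR's quasi-likelihood test, 5 of 8 passed with a higher level at E11.5, with a median log2 fold change of 1.23 over the list, and 0 of 8 passed with a lower one. When E10.5 replicate 3 was left out, 7 of 8 passed upward, with a median of 0.96. Pdgfra had a log2 fold change of 1.27 (SE 0.22, edgeR adjusted p = 0.0100) and Twist1 of 0.87 (SE 0.29, edgeR adjusted p = 0.0932). Of the 8 forebrain and neural progenitor markers, 7 passed with a lower level. The part of these marker differences in the members' changes was not tested.

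**Figure D3:**
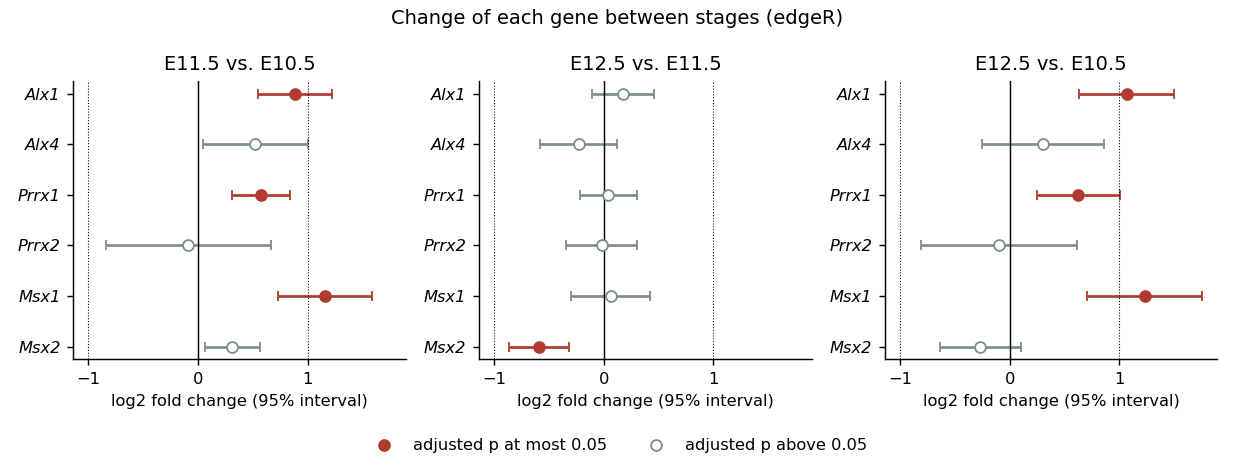
Log2 fold change (x axis) with its 95% interval for each gene in the 3 comparisons of stages, with filled red points at an edgeR adjusted p of at most 0.05 and dotted lines at a log2 fold change of −1 and 1. Alx1, Prrx1 and Msx1 are filled on the right in both comparisons with E10.5, and between the later stages Msx2 alone is filled, on the left at −0.59.

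Between E11.5 and E12.5 1 member passed the test, and it was Msx2, the second BMP-responsive Msx gene, which fell. Msx2 was at 54.9, 45.9 and 49.0 CPM in the E12.5 libraries, all below its E11.5 libraries of 70.2 to 80.4 CPM. Its log2 fold change was −0.59 (SE 0.12, 95% interval −0.86 to −0.32) with an adjusted p of 0.0112 by edgeR's quasi-likelihood test. One of 6 members thus passed with a lower level, where 4.57% of 15808 genes tested did, and 17.2% of genes had all E12.5 libraries below E11.5. The edgeR adjusted p of Msx2 was 0.0727 with E11.5 replicate 2 left out and 0.0544 with replicate 3 of that stage left out.

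For the other 5 members the E12.5 and E11.5 libraries overlapped and 0 passed upward by edgeR, by DESeq2 or at an unadjusted edgeR p under 0.05, against 7.61% of genes tested by edgeR after adjustment. With 18.3% of genes having all E12.5 libraries above E11.5, this was so for 0 of 6 members, and 0 of 6 were DEGs, against 4.14% upward and 0.962% downward. Prrx1 was at 509, 552 and 513 CPM at E12.5, a log2 fold change of 0.04 with a 95% interval of −0.22 to 0.30. Alx1 was at 321, 306 and 385 CPM, a log2 fold change of 0.17 (−0.11 to 0.45). These intervals leave room for changes of up to 1.23-fold in Prrx1 and 1.37-fold in Alx1 upward.

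The E12.5 libraries of the remaining members were more spread. Msx1 was at 695 CPM in E12.5 replicate 1 and at 471 and 481 CPM in replicates 2 and 3, a log2 fold change of 0.06 (−0.30 to 0.42). Alx4 was at 316, 327 and 214 CPM, with replicate 3 low, a log2 fold change of −0.23 (−0.58 to 0.12). Prrx2 was at 147, 118 and 176 CPM, spread to both sides of its E11.5 libraries, a log2 fold change of −0.02 (−0.35 to 0.31), and with the GC trend of each library removed it was −0.30 (edgeR adjusted p = 0.156). The adjusted p of the 5 genes ranged from 0.363 for Alx4 to 0.943 for Prrx2 by edgeR's quasi-likelihood test. Over the same interval 4 of 8 mesenchyme markers passed upward and 0 downward, with Pdgfra at a log2 fold change of 0.26 and Twist1 at −0.06 (edgeR adjusted p = 0.210 and 0.813).

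Over the whole span, E12.5 vs. E10.5, Msx1 and Alx1 were upregulated DEGs and Prrx1 was higher. Msx1 was 2.35-fold higher (95% interval 1.63 to 3.38, log2 fold change 1.23, edgeR adjusted p = 0.00376) and Alx1 2.09-fold higher (1.55 to 2.83, log2 fold change 1.07, edgeR adjusted p = 0.00288). Prrx1 was 1.54-fold higher (1.19 to 2.01, edgeR adjusted p = 0.0229). In these 3 genes all E12.5 libraries lay above all E10.5 libraries, against 22.3% of 15899 genes tested. In this comparison 14% of genes passed upward, 10.5% passed downward, 9.97% were upregulated and 5.08% downregulated DEGs, and 20.1% had all E12.5 libraries below E10.5, which was so for 0 of 6 members.

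The remaining members did not pass. Alx4 had a log2 fold change of 0.31 (−0.25 to 0.86), Prrx2 of −0.10 (−0.81 to 0.62) and Msx2 of −0.27 (−0.64 to 0.10), with edgeR adjusted p of 0.413, 0.857 and 0.276 and overlapping libraries. When E10.5 replicate 3 was left out, Alx4 was at 0.08 and Prrx2 at −0.43 (edgeR adjusted p = 0.784 and 0.0991), and with the GC trend removed Prrx2 was at −0.23 (edgeR adjusted p = 0.434). The edgeR call of Msx1 as a DEG held without each of the 6 libraries in turn, at log2 fold changes of 1.02 to 1.39. Alx1 passed the p threshold in all 6 of these fits, but its log2 fold change was under 1 without E10.5 replicate 3 (0.92) or without E12.5 replicate 3 (0.96). Prrx1 lost its call without E10.5 replicate 1 or 2 or E12.5 replicate 1 or 2, at edgeR adjusted p of 0.0905, 0.0568, 0.0766 and 0.0501. The 3 comparisons share libraries, so agreement of direction among them is not independent evidence.

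With the 3 stages tested together in one fit of all 9 libraries, 4 of the 6 members differed among stages, against 28.3% of 16375 genes tested. The edgeR adjusted p was 0.000995 for Alx1, 0.00157 for Msx1, 0.00754 for Prrx1 and 0.0153 for Msx2, and it was 0.200 for Alx4 (0.0374 when all genes with at least 1 count were tested) and 0.945 for Prrx2. Msx2 no longer passed in 2 of the 9 fits made without a library, at an edgeR adjusted p of up to 0.0802.

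Whether the change differed between the intervals was tested as the difference of the 2 signed log2 fold changes, second minus first. It was −1.08 for Msx1 (95% interval −1.83 to −0.33), −0.90 for Msx2 (−1.39 to −0.41), −0.74 for Alx4 (−1.55 to 0.07), −0.70 for Alx1 (−1.30 to −0.11), −0.52 for Prrx1 (−1.02 to −0.03) and 0.08 for Prrx2 (−1.02 to 1.18), where a negative value means a lower change in the second interval. None passed after edgeR adjustment (adjusted p from 0.0867 for Msx2 to 0.967 for Prrx2), where 1.18% of all genes did. Msx2 passed by DESeq2 (adjusted p = 0.0165), for which the share of all genes passing was not computed. Without E10.5 replicate 3, Msx2 passed at an edgeR adjusted p of 0.0390. The log2 fold changes of Msx2 were opposite in sign, 0.31 in the first interval and −0.59 in the second. Its difference therefore does not mean a larger change in the first interval.

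The ratio of the 2 genes of a pair within a library does not depend on how libraries are scaled to each other. Each ratio was tested over the 3 stages by an exact permutation test of the between-stage sum of squares of the log2 ratio, one-sided for large values, with Benjamini-Hochberg adjustment over the 3 pairs. The smallest p this design allows is 0.00357, since the 9 libraries can be split into 3 sets of 3 in 280 ways. Pairwise comparisons of 3 libraries with 3 cannot go below 0.1 and are not used for calls.

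The balance of the Msx genes moved toward Msx1 at each stage. There were 4.48, 3.96 and 3.12 Msx1 reads for each Msx2 read in the E10.5 libraries. This count was 7.40, 5.94 and 7.70 a day later, and 12.6, 10.3 and 9.83 at E12.5. The ranges of the 3 stages did not overlap. The mean log2 ratio was 1.93 ± 0.27 (SD, n = 3) at E10.5, then 2.80 ± 0.20 and 3.44 ± 0.19, a difference of 1.51 between E12.5 and E10.5 with an exact p of 0.00357 (adjusted p = 0.00536). The adjusted p stayed at or below 0.0107 in this exact permutation test when any of the 9 libraries was left out, with differences of 1.36 to 1.63. With the GC trend of each library removed, the difference was 1.39 (exact permutation test, adjusted p = 0.00357). The first step of 0.87 went with a higher Msx1 level, and the second of 0.64 with a lower Msx2 level, as given above for each gene.

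The balance of the Alx genes moved from Alx4 toward Alx1. The count ratio of Alx1 to Alx4 was 0.706, 0.620 and 0.827 at E10.5, then 0.918, 0.884 and 0.886, and at E12.5 it was 1.02, 0.937 and 1.80, again with no overlap between stages. The mean log2 ratio was −0.49 ± 0.21 (SD, n = 3), −0.16 ± 0.03 and 0.26 ± 0.51, with an exact p of 0.00357 (adjusted p = 0.00536). E12.5 replicate 3, with high Alx1 and low Alx4, made much of the size: the difference between E12.5 and E10.5 was 0.75 with it and 0.45 without it (exact permutation test, adjusted p = 0.0589). The call was lost in 6 of the 9 tests that left out a library, at an adjusted p of up to 0.0857 in the exact permutation test. These 6 left out E10.5 replicate 1 or 2, any E11.5 library or E12.5 replicate 3.

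The balance of the Prrx genes did not pass. There were 1.80, 1.83 and 4.06 Prrx1 reads for each Prrx2 read at E10.5, then 3.83, 3.36 and 3.13, and at E12.5 3.47, 4.67 and 2.92. E10.5 replicate 3 lay with the later stages, apart from the other E10.5 libraries. The mean log2 ratio was 1.25 ± 0.67 (SD, n = 3), 1.78 ± 0.15 and 1.86 ± 0.34, with an exact p of 0.257. Without E10.5 replicate 3 the difference between E12.5 and E10.5 was 1.00 (exact permutation test, adjusted p = 0.0286) in place of 0.61, and with the GC trend of each library removed it was 0.87 (exact permutation test, adjusted p = 0.00357). Prrx1 and Prrx2 are the pair furthest apart in GC content, at 43.6% and 63.6%.

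**Figure D4:**
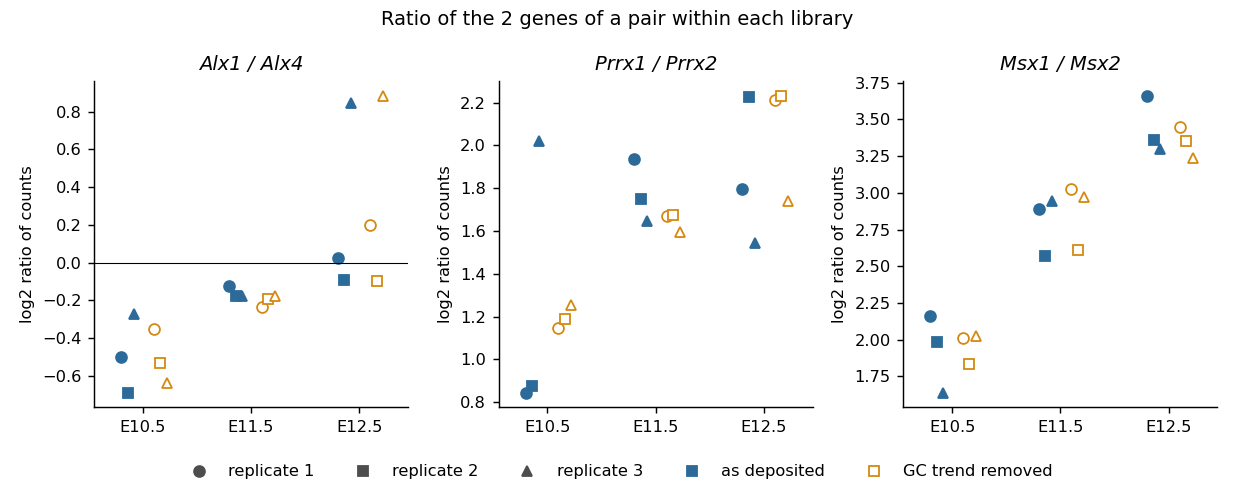
Log2 ratio of counts of the 2 genes of each pair (y axis, its own scale for each pair) in each library by stage (x axis), as deposited (filled blue) and with the GC trend of each library removed (open orange), with marker shapes for replicates. The Msx1 to Msx2 ratio steps up from 1.93 to 2.80 to 3.44 on average with no overlap, the Alx1 to Alx4 ratio of E12.5 replicate 3 stands at 0.85, and the Prrx1 to Prrx2 ratio of E10.5 replicate 3 lies apart from the other E10.5 libraries as deposited.

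The profiles of the members over the 9 libraries were compared by the root mean square difference of log2 CPM, each gene centred on its own mean. All 9 libraries enter this measure, among them E10.5 replicate 3, where Prrx2 differed by −1.43 on the log2 scale from the mean of replicates 1 and 2. The profiles were not compared without that library. As a description, the closest members were Alx1 and Prrx1 (0.23) and Alx1 and Msx1 (0.23). The farthest were the paralogs Msx1 and Msx2 (0.64) and, from different pairs, Prrx2 and Msx1 (0.63). Among 14117 protein-coding genes, those most like each member were Lix1l (0.10), Elk3 and Rflnb for Alx1, Akna (0.09), Sh3pxd2a and Ttyh3 for Alx4, and Tesk2 (0.07), Vangl1 and Wipf1 for Prrx1. For Prrx2 they were Egfl7 (0.15), Lzts2 and Ssbp4, for Msx1 Tmem169 (0.11), Ldb2 and Bcl11a, and for Msx2 Arhgap26 (0.09), BC030867 and Myo1h. For scale, the members themselves varied around their own mean by 0.26 (Msx2) to 0.62 (Msx1) on the same measure.

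The BMP pathway, upstream of the Msx genes in many tissues, was measured as 11 ligands and receptors and 14 effectors and inhibitors, with all calls by edgeR's quasi-likelihood test. Of the ligands and receptors, 4 passed upward and 1 downward in the first interval (E11.5 vs. E10.5), 2 and 2 in the second (E12.5 vs. E11.5), and 6 and 2 over the whole span, where the median log2 fold change was 0.75 over the list and −0.01 over all genes tested. The ligands Bmp2 and Bmp6 had the smallest p-values upward over the whole span, at log2 fold changes of 3.27 and 3.25 (edgeR adjusted p = 1.65e-05 and 2.15e-05). The receptors Acvr2b and Bmpr1b fell by 2.13 and 1.14 on the log2 scale (edgeR adjusted p = 0.000746 and 0.00286). With E10.5 replicate 3 left out, 9 of the 11 passed upward and 1 downward in the first interval.

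Of the BMP effectors and inhibitors, 4 passed upward and 1 downward in the first interval, 3 and 0 in the second and 4 and 0 over the whole span, with a median log2 fold change of 0.52. The secreted BMP antagonists Grem1 and Nog led, with log2 fold changes of 1.96 and 1.58 over the whole span (edgeR adjusted p = 9.17e-05 and 0.000357). By interval, Grem1 rose by 1.30 in the first interval and 0.65 in the second (edgeR adjusted p = 0.00848 and 0.0475), and Nog had values of −0.02 and 1.59 (edgeR adjusted p = 0.960 and 0.000287). The difference between these intervals was not tested, nor was any relation to the Msx genes. With the same library left out, 6 of the 14 passed upward and 1 downward in the first interval.

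Of 20 other regulators of facial mesenchyme, 8 passed upward and 0 downward in the first interval, 5 and 1 in the second and 10 and 1 over the whole span by edgeR's test, with a median log2 fold change over the whole span of 0.70. The zinc-finger palate factors Osr1 and Osr2 had log2 fold changes of 4.98 and 4.60 (edgeR adjusted p = 2e-05 and 2.57e-06), and the forkhead factor Foxc2 fell by 1.69 (edgeR adjusted p = 0.0117). In the first interval 14 passed upward and 4 downward without E10.5 replicate 3. A further list held 7 genes described as downstream of Prrx1 or Msx factors, mostly genes of the extracellular matrix and cell adhesion. Of these, 6 passed upward and 1 downward in each comparison, with a median log2 fold change of 3.53 over the whole span. Among all genes tested, 6.19%, 7.61% and 14% passed upward in the first interval, the second and the whole span, and 5.58%, 4.57% and 10.5% downward. This list was chosen with earlier results of these data known, and the paper names Tnc, Col1a1 and Col6a1 among its DEGs. Its counts are therefore a description, and a relation to the members was not tested. The matricellular gene Postn had a log2 fold change of 3.53 and the adhesion gene Ncam1 of 2.51 over the whole span (edgeR adjusted p = 2.66e-06 and 1.78e-05), while the cyclin gene Ccnd1 fell by 1.35 (edgeR adjusted p = 0.000754). Postn, Col1a1 and Col3a1 of this list are also mesenchyme markers.

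Of 12 other paired-class and Msx relatives, 8 had counts enough to be tested against E10.5 at either later stage, and 1 passed upward and 5 downward in each by edgeR's test, with a median log2 fold change of −1.18 over the whole span. In the first interval 6 passed downward once E10.5 replicate 3 was left out. In E12.5 vs. E11.5, 6 were tested, with 2 upward and 1 downward. Shox2, a homeobox gene of palate and limb mesenchyme, rose by 1.94 on the log2 scale over the whole span (edgeR adjusted p = 0.000268). Pitx1, a homeobox gene of the oral ectoderm and mandible, fell by 1.38 (edgeR adjusted p = 0.000713).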

How the data were processed

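RNA-seq counts of 9 lambdoidal junction libraries (3 stages, 3 libraries each, grouped by the labelled developmental stage) were analysed. The authors mapped reads to GRCm38/mm10 using HISAT2 2.0.5, and featureCounts gave the reads per gene. The strand setting and the handling of multi-mapped reads are not given in the sources used here. The deposited table holds whole-number counts, which were used, beside FPKM values, the authors' normalized stage signal, log2 fold changes and p-values of their own comparisons, none of which were used. Counts were filtered with filterByExpr, scaled by TMM and tested with edgeR 4.0.16 (limma 3.58.1, R 4.3.3) for each pair of stages, with Benjamini-Hochberg adjustment over all genes tested. CPM values use TMM-scaled library sizes, and RPKM divides CPM by the deposited gene length. The biological coefficient of variation was 0.153 to 0.219. Pair ratios added 0.5 to each count and were tested with Python 3.11.15.

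The members and lists were chosen with earlier results of these data known. All 6 members are named, and from each list up to 2 passing genes per direction with the smallest p over E12.5 vs. E10.5. Some genes that this rule picks are not reported here. The marker lists (facial mesenchyme, surface and oral epithelium, forebrain and neural progenitors, endothelium, and 6 others given in the closing section) describe the tissue. Gene models were compared with GENCODE vM21, in which 54409 identifiers were found, 98.3% of them at the same coordinates, and GC content came from its longest transcripts. Promoters came from RefSeq GRCm38.p6, and bases that are exon in GENCODE were left out. Alternatives were DESeq2 1.42.0, other scaling, other low-count filters, only protein-coding genes, removal of hemoglobin genes, all 9 libraries in one fit, removal of each library's GC trend, a replicate block and leaving out each library. Removal of the GC trend from the pair ratios was added after the data were seen. The scripts were tested on simulated counts. Precision at these depths is set by the spread between pools, since every member had at least 821 reads in every library.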

Additional observations from a re-analysis of the deposited data

How the results depend on the processing

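Beside leaving out libraries, the alternatives kept 1 DEG among the members in the first interval (E11.5 vs. E10.5), 0 in the second and 2 over the whole span. Among all genes the DEGs numbered 954, 806 and 2392 in these comparisons, and 677 to 1208, 588 to 1051 and 1643 to 3044 under the alternatives. In the test of the second against the first interval 1 member passed in place of 0, Msx1 with all genes of at least 1 count or with the GC trend removed, and Msx2 with DESeq2. With all genes of at least 1 count Alx4 also passed in the first interval (4 members in place of 3) and in the test of 3 stages (5 in place of 4), and with the GC trend removed it passed in the first interval. With that trend removed the Prrx1 to Prrx2 ratio difference became 0.87 and passed. Values near 0 changed sign. Prrx2 had 0.092 in E11.5 vs. E10.5 with the GC trend removed, 0.040 in E12.5 vs. E11.5 with upper quartile normalization and −0.36 in the second against the first interval with the GC trend removed, and Msx1 had −0.085 in E12.5 vs. E11.5 with the GC trend removed. The cause was not tested.

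Replicate numbers did not pair the libraries, since the deviations of same-numbered libraries correlated at −0.15 to 0.22. With a replicate block the DEGs numbered 875, 887 and 2474, the members passing were 3, 1 and 3, and Prrx2 changed sign to 0.034 in the first interval and 0.0022 over the whole span. No call of a member changed.

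Leaving out 1 library at a time gave 395 to 1592, 502 to 1181 and 1895 to 2738 DEGs in the 3 comparisons, 0 to 1, 0 to 0 and 1 to 2 members as DEGs, and 0 to 6, 0 to 1 and 2 to 3 members passing. The 0 and the 6 came without E11.5 replicate 1 and E10.5 replicate 3, and 1 passed without E11.5 replicate 3. In the test of 3 stages 3 to 4 members passed, and in that of the intervals 0 to 1. Ratio differences were 0.45 to 0.92 (Alx), 0.41 to 1.00 (Prrx) and 1.36 to 1.63 (Msx). Prrx2 ranged from −0.43 to 0.16, −0.18 to 0.11 and −0.43 to 0.14 in the 3 comparisons and from −0.16 to 0.38 between intervals, and in E12.5 vs. E11.5 Prrx1 ranged from −0.013 to 0.069 and Msx1 from −0.14 to 0.16.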

Other observations

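Msx3, the third Msx gene and a marker of the dorsal neural tube, had at most 3 reads in any library.

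Marker lists of other cell types were summed in CPM within each library, and the ranges are over the 3 libraries of each stage. Calls of single markers are by edgeR's quasi-likelihood test. Cartilage markers ranged from 515 to 927, 382 to 506 and 407 to 535 at the 3 stages in turn, with Col2a1 the largest part, and Matn4 was at 0 in the E10.5 libraries. Red blood cell markers ranged from 2844 to 3850, 4598 to 5017 and 4365 to 5675, muscle markers from 50.3 to 95.5, 104.7 to 121 and 66.4 to 86.0, and endothelial markers from 114 to 308, 294 to 308 and 247 to 314. Pax7, also on the list of facial mesenchyme regulators, was the largest part of the muscle sum, at mean levels of 61.8, 106 and 70.3 CPM. Myod1 was at 0.358 CPM and Myog at 0.768 CPM at E12.5, and Des was at 15.3 CPM at E10.5 and 0.807 CPM at E12.5. Macrophage markers ranged from 19.3 to 32.7, 27.8 to 30.3 and 32.9 to 37.3, glia and pigment markers from 74.1 to 94.0, 83.7 to 90.4 and 89.9 to 125, and olfactory and neuronal markers from 179 to 223, 203 to 224 and 289 to 329. In E12.5 vs. E10.5, 6 of 8 mesenchyme, 3 of 10 epithelial and 4 of 8 red blood cell markers passed upward. Downward, 7 of 8 forebrain and neural progenitor markers passed, with 2 of 10 epithelial and 1 of 8 red blood cell markers. The part of these cells in the members' values was not tested.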
